A study of Mus musculus with 2 samples.

Results

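The ADAMTS genes encode a family of secreted metalloproteases of the extracellular matrix, and 10 of them (Adamts1, Adamts2, Adamts4, Adamts5, Adamts9, Adamts10, Adamts12, Adamts16, Adamts18 and Adamts20) were followed in embryonic mouse ureters cultured with or without NOGGIN. They were chosen by name after Adamts16 had been seen to change strongly and alike on both arrays, and every probe that carries one of these names was used. This gave 18 probes, all kept after the filter on dim signal, among 39429 probes on the array, and 10 genes among 22311 that were kept. Because these same arrays led to the choice of genes, the values of the 10 genes are given as a description and without a test.

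The NOGGIN samples were ureters of wild-type NMRI embryos of mixed sex, dissected at the embryonic stage E13.75 and grown on transwell membranes for 18 h with NOGGIN at 10 µg/ml in the medium. The control samples were ureters of the same strain, genotype, stage and culture time in medium that lacked NOGGIN. NOGGIN is an extracellular antagonist of bone morphogenetic proteins (BMPs): it captures these ligands before they reach a receptor. Labelled RNA was made from 200 ng of total RNA, and 2 two-colour arrays were read, each holding 1 NOGGIN and 1 control sample, with the dyes exchanged between them: NOGGIN RNA carried AlexaFluor555 (green) on array 1 and AlexaFluor647 (red) on array 2. Each group therefore had 2 samples. The labels number the samples but name no separate litters or cultures, and how many ureters went into a sample was not stated in them, so p-values measure only the spread between these samples, which may be technical.

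ADAMTS stands for a disintegrin and metalloprotease with thrombospondin motifs. These enzymes are made as inactive precursors, cut by furin-like convertases, bound to the matrix through their thrombospondin repeats, and inhibited by tissue inhibitors of metalloproteases. They fall into groups by substrate: some cut versican and aggrecan, large proteoglycans that bind hyaluronan, others remove the amino-terminal propeptide of fibrillar procollagens, and others act on fibronectin or on fibrillin microfibrils. In the embryonic ureter an inner epithelium is wrapped by mesenchyme that lays down this matrix and, under BMP4, forms smooth muscle.

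The probe sequences below show where the arrays read the 2 of the 10 genes whose separate probes differed most, Adamts16 and Adamts2. All are taken from the array annotation, written 5′ to 3′, with positions in the files' build (mm9). Only the first 30 bases of the first probe are shown, the other 3 are whole at 60 bases, and no letters are capitalised because no motif is marked.
Adamts16, brighter probe, chr13:70867148-70867207, minus strand: gatgggggctatgatatagggctttgcata
Adamts16, dimmer probe, chr13:70906800-70906859, minus strand: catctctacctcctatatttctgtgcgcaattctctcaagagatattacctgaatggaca
Adamts2, brighter probe, chr11:50617472-50617531, plus strand: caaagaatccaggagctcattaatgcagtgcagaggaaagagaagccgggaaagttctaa
Adamts2, dimmer probe, chr11:50590188-50590247, plus strand: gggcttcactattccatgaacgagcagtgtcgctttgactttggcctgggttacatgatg
No run of 12 bases was shared between probes of different genes among the 10 (0 pairs). Exon and UTR annotation of mm9 was not used here. For Adamts16, the annotation gives transcript position 4452 for the brighter probe and 2594 for the dimmer one, 1858 bases apart.

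The direction of every ratio below follows the dye labels, and the sources do not settle it. Id1, a transcriptional regulator that BMP signalling through SMAD proteins activates in many tissues, was higher in the channel labelled NOGGIN, with log2 ratios of 2.21 and 2.08 (2.14 ± 0.09, SD, n = 2). In the authors' deposited table, whose titles set NOGGIN against control, Id1 has signed fold changes of -4.65 and -4.53. Across 29638 probes the log2 of that table's values correlated with the NOGGIN over control ratios at -0.91 on array 1 and -0.95 on array 2, so it runs the opposite way on both. If the labels of the 2 channels were exchanged, each "lower" below would read "higher" and the sizes would stay. Samples are accordingly called by their channel labels.

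Adamts16 had the lowest mean log2 ratio (NOGGIN over control) of the 22311 genes, 1 of the values that chose it. ADAMTS16 is a fibronectin-cleaving protease that has been studied in kidney and gonad development and is the closest relative of ADAMTS18. On the brighter probe its normalised log2 level was 7.85 and 7.86 in the samples labelled NOGGIN, against 10.60 and 10.71 in those labelled control. The samples of each label lay close together and the groups stood far apart. The log2 ratios were -2.75 and -2.85, a mean of -2.80 ± 0.08 (SD, n = 2), which is 6.96-fold lower in the channel labelled NOGGIN. Over the single spots of this probe the ratio ran between -3.09 and -2.17 on array 1 and between -3.16 and -2.57 on array 2, so every spot was lower.

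The scanner's own signals show the same separation before any normalisation. The mean signal of the brighter Adamts16 probe was 239 and 194 in the samples labelled NOGGIN, against 1085 and 2244 in those labelled control. The local background beside these spots was 27.3 and 67.4 in the NOGGIN channels and 67.8 and 28.8 in the control channels. All 4 spots were well above background in all 4 samples, so the ratio is a measured one and not a bound.

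The dimmer Adamts16 probe gave the same sign and a smaller size. Its log2 level was 7.08 and 6.80 in the samples labelled NOGGIN and 8.70 and 8.03 in those labelled control. The groups did not overlap on this probe either. The log2 ratios were -1.62 and -1.23, a mean of -1.42 ± 0.28 (SD, n = 2), or 2.68-fold. The signal was closer to background here: raw mean signals were 113 and 99.6 in the NOGGIN samples and 313 and 276 in the control samples, and only 2 of 4 spots were well above background in the array 2 sample labelled NOGGIN.

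The difference between the 2 Adamts16 probes (brighter minus dimmer) was -1.12 on array 1 and -1.63 on array 2, a mean of -1.38 ± 0.35 (SD, n = 2) on the log2 scale. Among 4471 genes with 2 kept probes the median size of this difference was 0.13 and its 95th percentile was 0.47. Among the 70 of them whose mean log2 ratio was past 1 in size, the median was 0.44. The Adamts16 probes differed by more than 99.9% of all 4471 pairs did, most of which had small ratios. Adamts16 was chosen for its large ratio, which enters the gap, so nothing is read from that rank. The part of dim signal in the gap was not tested. With the scanner's processed signals in place of the mean signals, the brighter probe gave -3.29 ± 0.23, the dimmer one -2.34 ± 0.19, and the gap was -0.95. The sign held for both, but the size of the Adamts16 change depends on the probe and on the signal used.

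**Figure D1:**
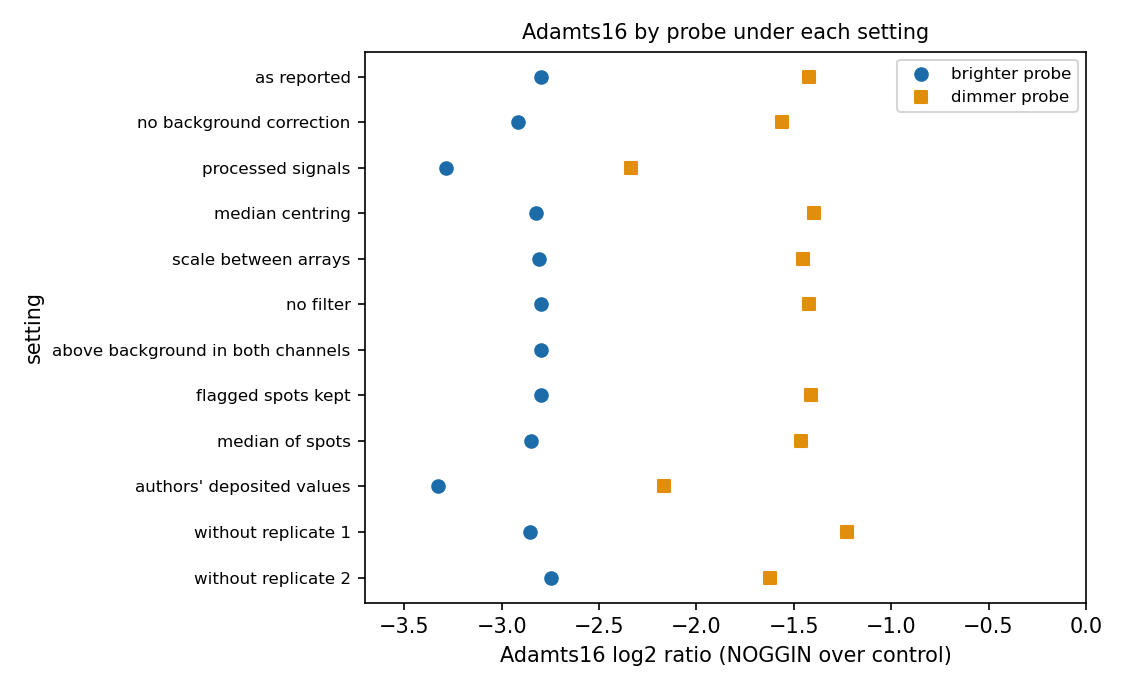
Log2 ratio (NOGGIN over control, horizontal axis) of the 2 Adamts16 probes under each processing setting (vertical axis), with points for the mean of 2 arrays or for 1 array alone. The brighter probe lies left of the dimmer one in every setting that measured both, and no value reaches 0.

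Adamts18, Adamts2 and Adamts5 were the other members at least 1.5-fold lower on both arrays, and none of the 10 was 1.5-fold higher on both. That makes 4 of 10 lower and 0 of 10 higher, beside 1.25% and 0.941% of all 22311 genes (2.19% in either direction); since the choice of members used this contrast, nothing is read from the difference. Without regard to size, 6 of the 10 were lower on both arrays (23.3% of all genes), 2 were higher on both (20.4%) and 2 had opposite signs; the 6 include Adamts20, whose sign rests on 1 channel below background on each array. The median log2 ratio of the 10 was -0.12 (-0.08 on array 1 and -0.23 on array 2), against -0.01 over all genes (0.02 and -0.05).

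**Figure D2:**
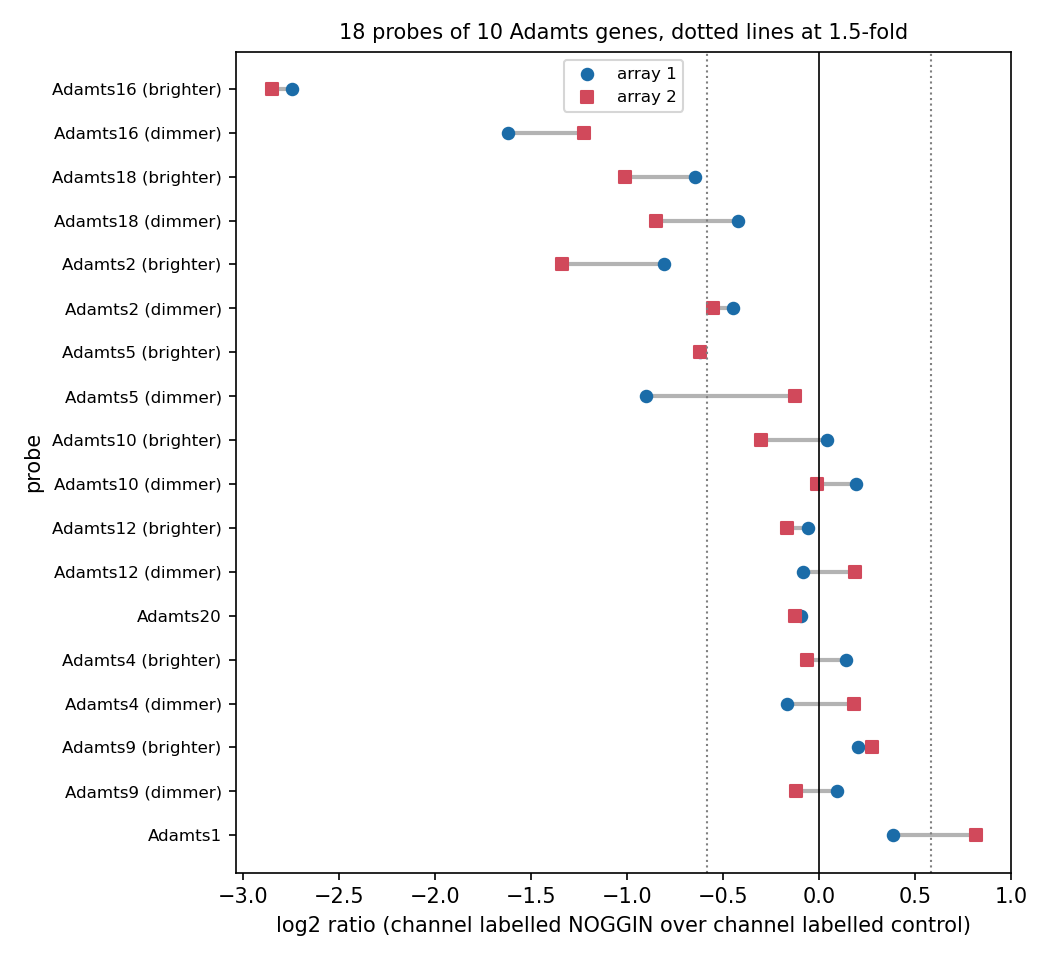
Log2 ratio (NOGGIN over control) of each of the 18 probes of the 10 Adamts genes, with 1 point for each array joined by a line, and dotted lines at 1.5-fold. The brighter Adamts16 probe lies furthest below 0 on each array, both probes of Adamts18, Adamts2 and Adamts5 lie below 0 on both arrays, and Adamts1 lies above 0 on both.

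Adamts18 encodes a protease needed for normal development of the eye and of branching organs in mice. On its brighter probe (chr8:116222720-116222779, minus strand) the log2 level was 8.52 and 8.33 in the samples labelled NOGGIN, against 9.16 and 9.34 in those labelled control. Both NOGGIN samples lay below both control samples. The log2 ratios were -0.65 and -1.01, a mean of -0.83 ± 0.26 (SD, n = 2), or 1.78-fold lower. The dimmer probe (chr8:116368682-116368741) gave -0.42 and -0.85, a mean of -0.64 ± 0.30, again with no overlap: 7.69 and 7.71 in NOGGIN samples, 8.11 and 8.56 in control samples. On processed signals both probes gave -0.96, so their sizes were alike.

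Adamts2 encodes the main procollagen N-peptidase of skin and tendon, which trims the precursors of type I and type III collagen. Its brighter probe had a log2 level of 12.02 and 11.81 in the samples labelled NOGGIN, against 12.83 and 13.15 in those labelled control. The NOGGIN samples were again the lower pair. The log2 ratios were -0.81 and -1.34, a mean of -1.07 ± 0.38 (SD, n = 2), or 2.11-fold lower. The dimmer probe, whose sequence stands above, gave -0.45 and -0.55, a mean of -0.50 ± 0.08, from levels of 8.70 and 8.34 in NOGGIN samples and 9.14 and 8.90 in control samples. The 2 probes shared the sign on both arrays while the brighter one gave the larger ratio on each.

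Adamts5 encodes an aggrecanase that also cuts versican. Its brighter probe (chr16:85858402-85858461, minus strand) had a log2 level of 9.20 and 9.18 in the samples labelled NOGGIN and 9.81 and 9.80 in those labelled control. The arrays gave nearly one value, -0.62 on each, so that the mean was -0.62 ± 0.003 (SD, n = 2), or 1.54-fold lower, just past the threshold. Its single spots spread more widely, between -0.80 and -0.32 on array 1 and between -0.91 and -0.28 on array 2. They thus lay on both sides of 1.5-fold. The dimmer probe was less regular, with -0.90 on array 1 and -0.12 on array 2 (-0.51 ± 0.55), from levels of 8.58 and 8.54 in NOGGIN samples and 9.48 and 8.66 in control samples.

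The calls of these 3 genes, unlike that of Adamts16, depended on the processing. Under centring each array on its median in place of loess, Adamts16 alone passed the 1.5-fold rule on both arrays. The means of the other 3 stayed negative there, at -1.11 for Adamts2, -0.85 for Adamts18 and -0.64 for Adamts5. Scaling the arrays to a common spread lost Adamts5, and averaging all probes of a gene lost Adamts18 and Adamts5.

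Adamts1 was the member furthest in the other direction. ADAMTS1 cuts versican and aggrecan, and mice that lack it develop an enlarged renal pelvis with obstruction where the ureter begins. Its single probe had a log2 level of 14.03 and 14.22 in the samples labelled NOGGIN, against 13.64 and 13.40 in those labelled control. Both NOGGIN samples were higher than both control samples. The log2 ratios were 0.39 and 0.82, a mean of 0.60 ± 0.30 (SD, n = 2), so that Adamts1 passed 1.5-fold on array 2 only and stands just outside the threshold that Adamts5 just meets.

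Adamts9, a versican-cleaving protease of developing vessels, heart and palate, was higher by less. Its brighter probe had a log2 level of 13.91 and 13.78 in the samples labelled NOGGIN, against 13.71 and 13.51 in those labelled control, with a mean ratio of 0.24 ± 0.05 (SD, n = 2). Its dimmer probe gave 0.10 and -0.12, with overlapping groups. The probes of Adamts9 did not share a sign on every array.

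For the remaining members the samples overlapped or the signal was low. Adamts4, an aggrecanase, averaged 0.04 ± 0.15 on its brighter and 0.01 ± 0.25 on its dimmer probe. Adamts10, which is bound to fibrillin microfibrils and is mutated in human Weill-Marchesani syndrome, averaged -0.13 ± 0.25 and 0.09 ± 0.15. Adamts12, which degrades cartilage oligomeric matrix protein, averaged -0.11 ± 0.08 and 0.05 ± 0.19. In none of these 3 genes did both probes keep the same sign on both arrays. Adamts20, known from the belted mouse, whose pigment cells fail to fill the trunk, averaged -0.11 ± 0.02 on its 1 probe. Its spots were well above background only in the green channel, which held the NOGGIN sample on array 1 (4 of 4 spots) and the control sample on array 2 (4 of 4 spots), so each group was measured on 1 array only.

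Over the 18 probes, 8 had both NOGGIN levels below both control levels (17.9% of all genes), and these were the 2 probes each of Adamts16, Adamts18, Adamts2 and Adamts5. A further 2 had them above (14.3% of all genes), the Adamts1 probe and the brighter Adamts9 probe, and 8 overlapped. The same 8, 2 and 8 were found when levels were taken as processed signals scaled by each channel's 75th percentile. For that scaling no share over all genes was taken. The 2 probes of a gene share that gene's RNA and are no replicates. The shares over all genes count each gene once, by its brightest probe, so they do not match counts of probes. Since the choice of members used this contrast, nothing is read from the difference.

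**Figure D3:**
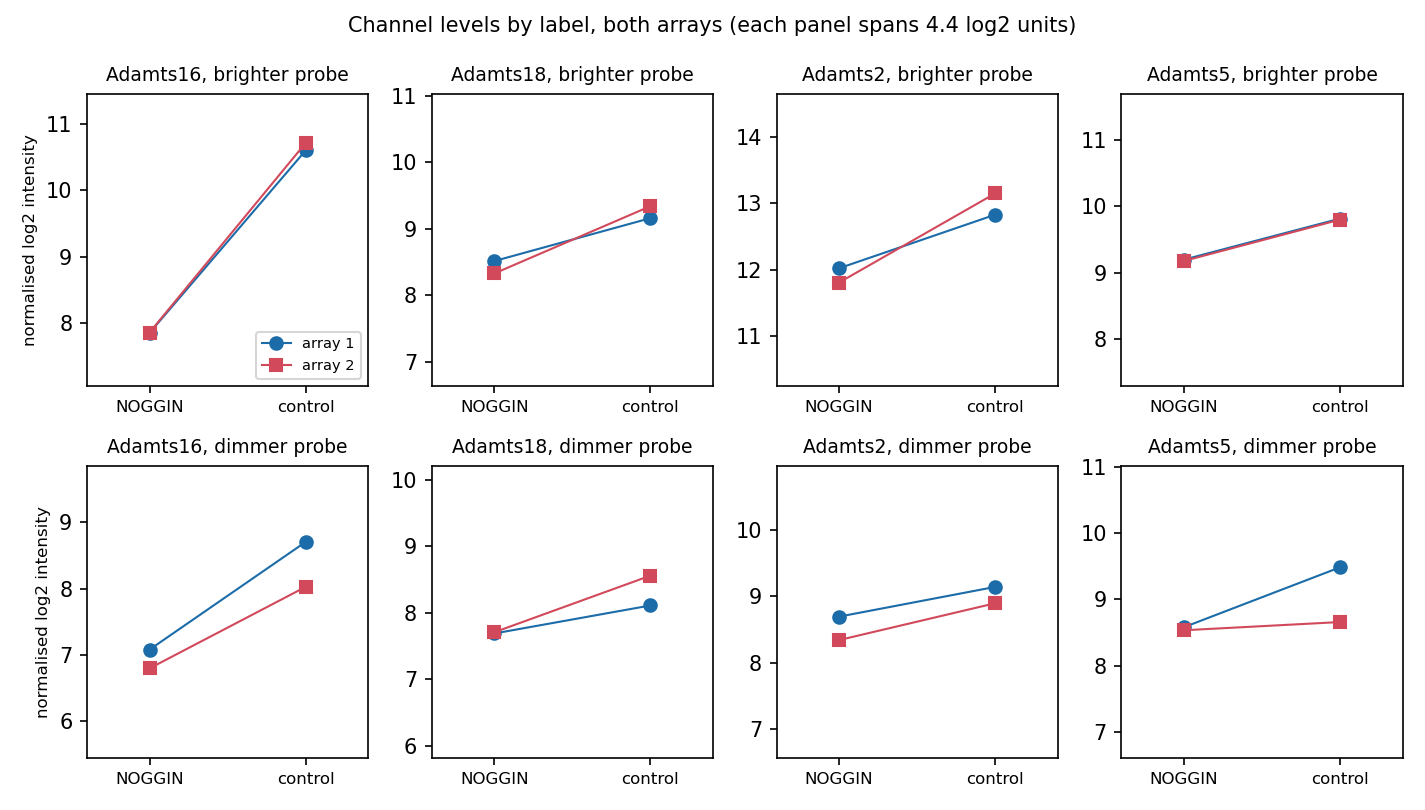
Normalised log2 level of Adamts16, Adamts18, Adamts2 and Adamts5, with the brighter probe in the upper row and the dimmer probe in the lower row. Each panel holds the 2 samples labelled NOGGIN (left) and the 2 labelled control (right). On the brighter probe the Adamts16 samples fall into 2 pairs, 7.85 and 7.86 for NOGGIN against 10.60 and 10.71 for control. Levels are not comparable between panels because probes differ.

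**Figure D4:**
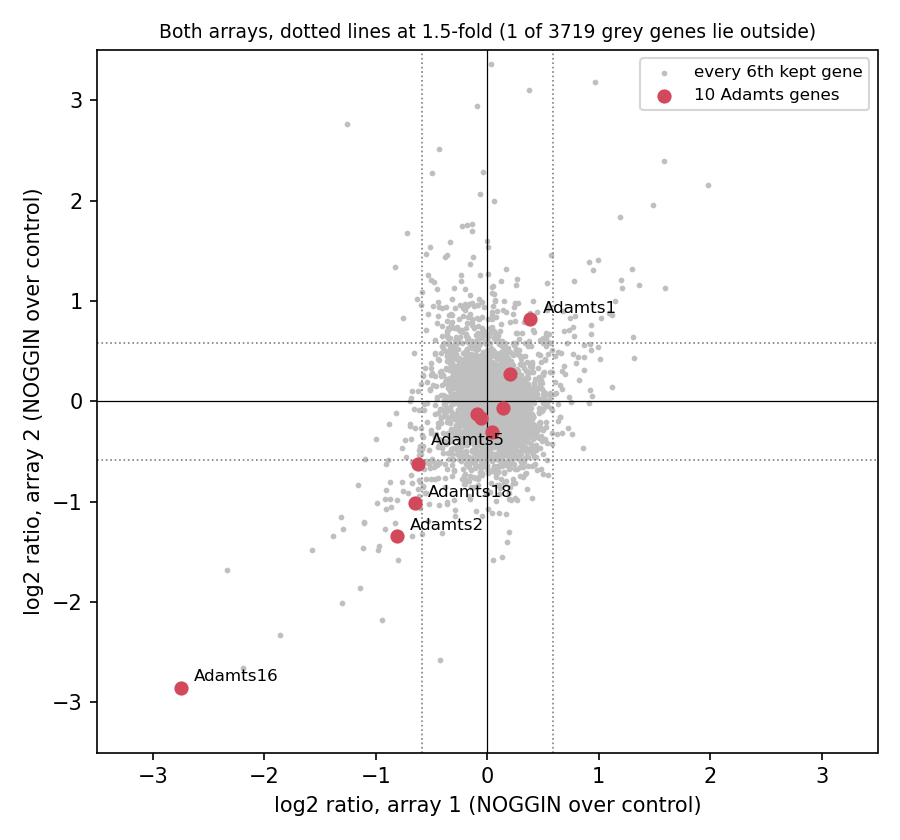
Log2 ratio (NOGGIN over control) on array 2 (vertical axis) against array 1 (horizontal axis), with dotted lines at 1.5-fold. The 10 members are red, the 5 furthest from 0 named, over a grey sample of all kept genes that includes some members. Adamts16 lies in the lower left, away from the bulk of the grey points, while Adamts4 and Adamts10 lie near 0 and have opposite signs on the arrays. Across genes the ratios of the 2 arrays correlated at only 0.18 (Pearson) and -0.07 (Spearman), so the arrays agreed little over the whole table.

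The 9 other Adamts genes on the array were read in the same way. They were taken by name, with earlier results of these data known. Limma's moderated test was applied to them, with Benjamini-Hochberg adjustment over all 22311 genes. No gene of the whole table passed an adjusted p of 0.05 (0 genes, 0% called), with 0.073 the lowest value; 1348 genes (6.04%) had an unadjusted p under 0.05, and 141 passed when the variance was fitted with a trend and robustly. Of the 9, Adamts13, the protease of von Willebrand factor, was not well above background. None of the 8 that were kept passed the adjusted p, 3 had an unadjusted p under 0.05 and 0 passed with the trended robust variance. By the 1.5-fold rule 2 were lower (1.25% of all genes), 0 higher (0.941%) and 6 neither, with a median log2 ratio of -0.33.

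The 2 past the rule were Adamts8 and Adamts17. Adamts8, a protease abundant in lung and heart, had a log2 level of 9.60 and 9.98 in the samples labelled NOGGIN, against 10.87 and 11.05 in those labelled control. Its ratios were -1.27 and -1.07, a mean of -1.17 ± 0.14 (SD, n = 2; limma adjusted p = 0.127). Adamts17, mutated in a human syndrome that resembles Weill-Marchesani syndrome, had levels of 11.37 and 10.97 in NOGGIN samples and 12.20 and 12.34 in control samples, a mean ratio of -1.10 ± 0.38 (limma adjusted p = 0.195). The groups did not overlap in either gene on these probes. The dimmer probes gave less: -0.21 ± 0.24 for Adamts8 and -0.09 ± 0.11 for Adamts17. Averaged over its probes, Adamts8 came to -0.83 and -0.55 on the arrays and Adamts17 to -0.50 and -0.69, so neither then passed 1.5-fold on both. With median centring Adamts17, at -0.44 and -1.83, did not pass either.

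The other 6 were closer to 0. Adamts15, a versicanase, averaged -0.54 ± 0.12 (SD, n = 2; limma adjusted p = 0.534). Adamts7 averaged -0.31 ± 0.04, and Adamts14, the third procollagen N-peptidase beside Adamts2 and Adamts3, averaged -0.34 ± 0.41. Adamts3 averaged 0.24 ± 0.18 and Adamts6 0.28 ± 0.16. The Adamts3 value rests on dim signal, with 1 of 4 spots well above background in the array 1 control sample. From processed signals Adamts3 gave 0.82 ± 0.33, and it dropped out under a filter that asks for signal in both channels. Adamts19 had opposite signs on the arrays, 0.42 and -0.33. Within the procollagen N-peptidases, then, Adamts2 alone met the 1.5-fold rule, and no test of the difference between the 3 genes was made.

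In all 12 Adamts genes with a second kept probe the dimmer one gave the smaller mean ratio in size, 6 of 6 past the 1.5-fold rule and 6 of 6 not past it. On processed signals this held in 5 of 6 and 5 of 6. Over all 4471 genes with 2 kept probes the dimmer one was smaller in 86% of the 100 past the rule, which was applied to the brighter probe, and in 47.9% of the 4371 not past it. What part the signal over background has in this was not tested.

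The substrates and partners of these enzymes were taken from lists chosen by function, with earlier results of these data known. Of 62 listed genes that are no Adamts gene, 57 were kept, and 1 was higher (0.941% of all genes) and 1 lower (1.25%) by the 1.5-fold rule, close to the share over all genes, with a median log2 ratio of -0.10. None passed the limma adjusted p, and 0 passed with the trended robust variance. Unadjusted, 11 of the 57 had a limma p under 0.05, a larger share than the 6.04% of all genes. Because of how the lists were chosen, nothing is read from that share. The 57 ratios ran from -0.80 to 0.88.

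Among the 6 of 7 ADAMTS-like genes that were kept, which encode relatives without a protease domain, Adamtsl1 was lower (-0.65 ± 0.02, SD, n = 2; limma adjusted p = 0.363), and the other 5 did not pass the rule; the list median was -0.13. Adamtsl1 did not pass on both arrays as the mean over its probes (-0.39 and -0.58) or from processed signals (-0.55 and -0.85). Nor did it pass in the authors' deposited table (-0.55 and -0.84, signs turned to follow the dye labels). The same held with median centring (-0.28 and -1.08) and with the arrays scaled to a common spread (-0.74 and -0.57). Of 12 proteoglycan and hyaluronan genes 9 were kept (Hapln2, Hapln4 and Has1 were not), with a median of -0.02. Hapln1, the link protein that ties aggrecan and versican to hyaluronan, was the member past the rule, higher at 0.88 ± 0.19 (limma adjusted p = 0.22), though with median centring, at 1.41 and 0.29, it passed on array 1 only. The versican gene Vcan, chosen here for its role after its value was seen, averaged 0.05 ± 0.12.

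The 6 fibrillar procollagen genes, substrates of the N-peptidases, had a median of -0.51 and none passed the 1.5-fold rule, with 5 lower and 1 higher on both arrays at any size. The largest were Col3a1 (-0.80 ± 0.34; limma adjusted p = 0.342) and, with the other sign, the cartilage collagen gene Col2a1 (0.67 ± 0.28; limma adjusted p = 0.444). The 10 fibrillin, fibronectin and other substrate genes had a median of -0.13 with 0 past the rule. Fn1, which encodes fibronectin, the ADAMTS16 substrate, averaged -0.44 ± 0.04, and Ltbp2, a microfibril protein gene, 0.41 ± 0.28. The 11 genes of inhibitors, activating convertases and clearance had a median of -0.07 with 0 past the rule. The inhibitor gene Timp4 averaged 0.64 ± 0.10 (limma adjusted p = 0.389), and 1.17 from processed signals. Lrp1, an endocytic receptor that clears ADAMTS5, averaged -0.42 ± 0.06. Of 16 other matrix metalloprotease genes 15 were kept (Mmp3 was not), with 0 past the rule, a median of -0.16, and Mmp9 (-0.37 ± 0.25) and Adam19 (-0.36 ± 0.30) the furthest from 0.

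**Figure D5:**
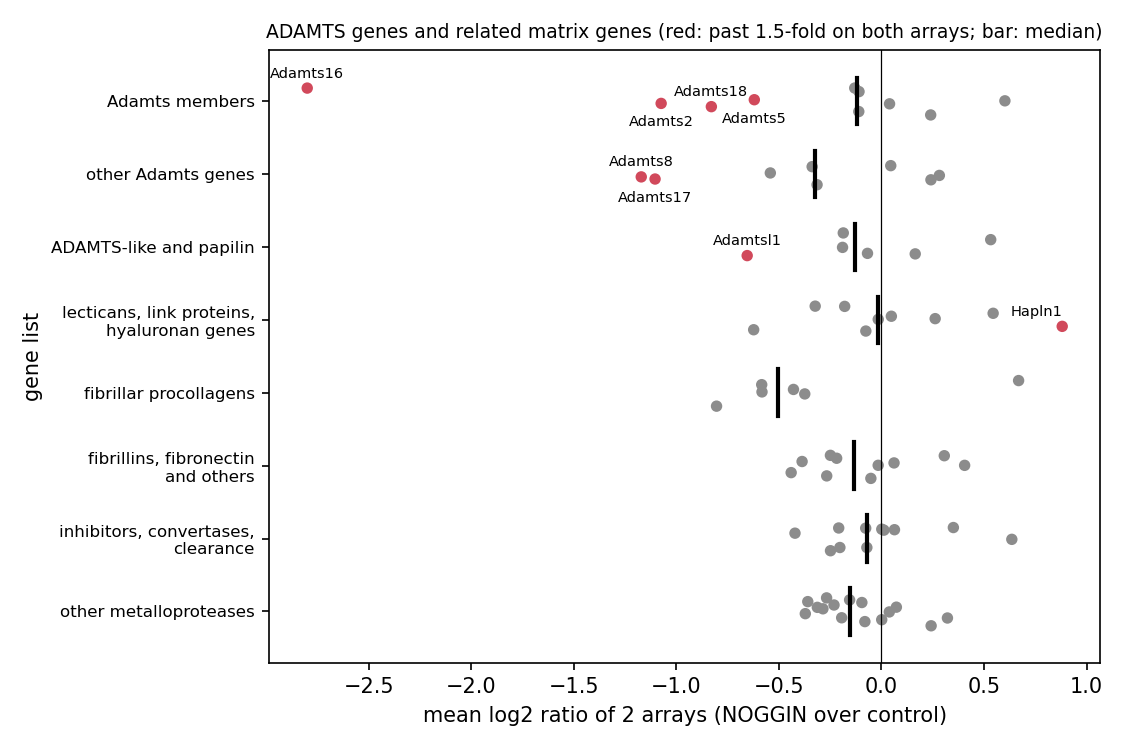
Mean log2 ratio (NOGGIN over control, horizontal axis) of each kept gene in the Adamts genes and in 6 lists of related genes (vertical axis), with a bar at each list's median. Genes past 1.5-fold on both arrays are red and named: 4 of the 10 members, Adamts8 and Adamts17, Adamtsl1, and Hapln1.

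The tissue label was checked against markers of the cell types a dissected ureter can hold. All 12 urothelial and all 8 ureteric mesenchyme and smooth muscle markers were kept. The summed linear level of the mesenchyme and smooth muscle markers was 147769 and 196259 in the samples labelled NOGGIN, against 282480 and 248532 in those labelled control; Tagln (-0.98) and Cnn1 (-0.80), genes of the contractile apparatus, were lower by the 1.5-fold rule, while Myocd (1.05) and Tbx18 (0.77), regulators of that lineage, were higher. Urothelial markers summed to 260203 and 239395 in NOGGIN samples, and to 197665 and 225762 in control samples, with Upk3b higher (0.89).

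Transcripts listed as markers of other tissues were detected as well, which alone does not place those tissues in the samples. All 7 nephron progenitor markers were kept, and Wt1 (-0.90) and Lhx1 (-1.12) were lower; their summed level was 56567 and 63389 in NOGGIN samples, against 63064 and 61704 in control samples. Of 8 skeletal and cardiac muscle markers 6 were kept, and Myh3 (-2.46), Tnnt2 (-1.63) and Myog (-1.53) were lower, although the sum over the list was 22282 and 26090 in NOGGIN samples, against 14901 and 21957 in control samples. Of the same list, Myf5 and Myod1 were not well above background, while Myog was kept. None of the 6 kept muscle markers passed the limma adjusted p. With the trended robust variance 3 of the 6 passed: Myh3 (adjusted p = 0.020), Myog (0.030) and Tnnt2 (0.015). With median centring Wt1, Lhx1 and Tbx18, and from processed signals Cnn1, did not pass on both arrays. No cartilage, endothelial, macrophage or neural marker passed the 1.5-fold rule. Actc1, another muscle gene of the list, was above 0 on both arrays (0.82 and 0.56), and the nephron sums overlapped between the groups. What part these cell types have in the Adamts ratios was not tested, and in whole-tissue RNA fewer cells of a type and less RNA per cell cannot be told apart.

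The 5 named genes whose pair of ratios lay nearest to that of Adamts16, by Euclidean distance over the 2 arrays, were Gdf6, Fgf18, Prmt8, Irs4 and Cdh3. Gdf6, a BMP-family ligand, averaged -2.71 ± 0.19 (SD, n = 2) at a distance of 0.171. Fgf18, a fibroblast growth factor, averaged -2.42 ± 0.33 at 0.590, and Cdh3, the P-cadherin gene, -2.18 ± 0.27 at 0.892. Prmt8, an arginine methyltransferase gene, averaged -2.24 ± 0.14 at 0.789, and Irs4, an insulin receptor substrate gene, -2.23 ± 0.03 at 0.804. In the array 2 sample labelled NOGGIN, Prmt8 had 2 of 4 and Irs4 0 of 4 spots well above background, so their ratios there rest on dim signal. For Irs4 the mean over its probes was -1.11, and the value from processed signals was -0.0012. With only 2 arrays, a small distance says that genes moved alike in these samples and no more.

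The kept genes beside Adamts16 on chromosome 13 were taken by their order in RefSeq and so chosen by position. Med10, Ice1 and Irx2 were lower on both arrays at any size (23.3% of all genes), though Ice1 only at -0.001 on array 1. Irx1 had opposite signs on the arrays. What part position has in the Adamts16 ratio was not tested. Med10 averaged -0.07 ± 0.06, Ice1 -0.23 ± 0.33 and Irx1 0.14 ± 0.24 (SD, n = 2). Irx2, an Iroquois homeobox gene, was lower by the 1.5-fold rule at -0.99 ± 0.12. Of the 4 neighbours, 1 thus passed the rule, beside 2.19% of all genes in either direction.

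Signed fold changes in the authors' deposited table, which run control over NOGGIN by the dye labels, gave the same 4 members past 1.5-fold on both arrays. For the brighter Adamts16 probe the authors' deposited table holds 8.76 and 11.5, and for the dimmer one 5.55 and 3.64. For Adamts18 the authors' deposited table has 1.73 and 2.07 on the brighter probe and 1.89 and 2.11 on the dimmer one. For Adamts2 the authors' deposited table has 1.74 and 2.50, then 1.67 and 1.49, and for Adamts5 1.59 and 1.64, then 2.08 and 1.14. In the authors' deposited table Adamts1 stands at -1.26 and -1.77, and Adamts20 at 1 on both arrays, which is no change. The brighter Adamts16 probe is the larger of the pair in these values too.

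Promoter windows were given for 6 of the 10 members (Adamts1, Adamts2, Adamts9, Adamts12, Adamts18 and Adamts20) in the RefSeq table. The letters GGCGCC, searched on both strands as a motif that SMAD1 and SMAD5 are known to bind, occurred in 2 of the 6 (Adamts2 and Adamts9) and in 11.9% of 32851 windows of the same length. The letters CAGAC, a SMAD-binding element searched on both strands, occurred in 2 of the 6 (Adamts18 and Adamts20) and in 49.6% of windows. Neither motif contains the other, and a match describes these letters only.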

How the data were processed

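Per the file headers, the deposited scanner files hold spot intensity values, well-above-background and outlier flags, and a log10 ratio of red over green, made with Agilent Feature Extraction 10.7.3.1, per the submitters' processing notes. That software had already subtracted background and balanced the dyes in the processed signals. A signed score per probe was also deposited, which set against the scanner values is a linear fold change with a median of 1; how it was normalized was not stated. Both arrays lay on 1 slide in 1 scan, and each holds both groups.

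From the mean signals, limma 3.58.1 (R 4.3.3) corrected background by normexp (offset 50) and normalized each array by loess with control spots at weight 0. Flagged spots (3.36% and 3.09%) were left out, none was saturated, and the 4 spots per probe averaged. Kept probes had a share above 0.5 of these spots well above background in 1 channel or both on each array; the brightest kept probe stood for its gene. Gene names were updated through RefSeq accessions (71.8% of probes matched). lmFit and eBayes used 1 coefficient, signed by dye, with 1 residual degree of freedom and 4.35 prior ones; p-values are two-sided. Levels are log2 channel values after loess and Aquantile. Well above background were 76.9% and 66.4% of probes in NOGGIN samples and 65.3% and 76.4% in control samples; 2 arrays limit the precision. The fit was tested on simulated data.

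The members, lists and named genes were chosen with earlier results of these data known. Named were all Adamts genes, of each other list the genes past the 1.5-fold rule or else the 2 largest, the 5 genes nearest to Adamts16, Id1, and marker genes past the rule. Figures were drawn with matplotlib 3.10.9.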

Additional observations from a re-analysis of the deposited data

How the results depend on the processing

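The Adamts16 log2 ratio kept its sign under all 14 alternatives, once the deposited signs were turned to follow the dye labels. It was -2.92 without background correction, -3.29 from processed signals and -2.11 as the mean over its probes. From the authors' deposited table it was -3.33 after that turn, the sign as deposited being opposite. With either array left out, the Adamts16 ratio was -2.85 to -2.75. The gap between its probes was -0.95 from processed signals and -1.63 to -1.12 with either array left out; it could not be computed under a filter that asks for signal in both channels, since the dimmer probe then drops out. Limma called 0 genes at a Benjamini-Hochberg threshold of 0.05 (1348 at an unadjusted p under it). It called 114 with median centring, 35 without background correction, 141 with the trended robust variance, 22 if flagged spots were kept, 100 under the filter on both channels, and 43 at a threshold of 0.1; the cause was not tested. The count past the 1.5-fold rule, 488, was 852 from processed signals, 149 at 2-fold, and 961 to 2631 with either array left out, where only 1 array has to pass and limma gives no test. Irs4 reversed to 0.015 under the filter on both channels, because another of its probes was then used. Of the other comparisons of a single gene or list median with an alternative, 645 stayed within the spread and 64 moved; Adamts4, Adamts10, Adamts19 and Adamts20 lay near 0 and did not keep their sign throughout.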
